A study of Mus musculus with 9 samples.

Results

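The proteasome genes described here were 43 of 13205 genes listed for the comparison of TTP-AA with TTP. They were chosen by name, as the genes with a proteasome subunit symbol (Psma to Psmg followed by a number), leaving out the 3 catalytic subunits of the immunoproteasome. The library table held 48 symbols of that form, of which 46 were listed, and the 43 were the remainder after Psmb8, Psmb9 and Psmb10 were set aside. Psma8, an alpha subunit of the testis, and Psmb11, a catalytic subunit of the thymus, were in the library table at mean levels of 0.0767 and 5.22 scaled fitted reads and were not listed.

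RNA was sequenced from mouse macrophages that lack tristetraprolin (TTP), the product of Zfp36, an RNA-binding protein that recruits deadenylases to AU-rich elements in the 3′UTRs of inflammatory mRNAs. The cells were bone marrow-derived macrophages of TTP knockout mice, immortalized with human c-myc and Ras G12V, and they carried a tetracycline-inducible transgene for GFP alone (GFP), for GFP-TTP (TTP) or for GFP-TTP-AA (TTP-AA), in which the serines phosphorylated by the kinase MK2 are replaced (S52A and S178A). All 3 groups lacked the endogenous TTP gene product, carried both oncogenes, received doxycycline for 6 h and lipopolysaccharide (LPS, a bacterial cell wall component that activates macrophages) for 1 h, each at 1 µg/ml, and had 3 libraries, which the design text calls biological replicates. Each group was a transduced line that the study sorted for GFP, so that a difference between lines and an effect of the transgene cannot be told apart.

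The proteasome is the barrel-shaped protease that degrades ubiquitinated proteins, among them IκBα, whose removal frees NF-κB in LPS-treated macrophages. Its core is built of rings of alpha subunits, which form the gate, around rings of beta subunits, of which Psmb5, Psmb6 and Psmb7 carry the proteolytic sites. The regulatory particle caps the core with a base, which holds ATPases that unfold substrates and receptors for ubiquitin, and a lid, which removes the ubiquitin chain.

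The deposited library values were fitted means of the authors' model, as a product of a library factor, a term for the replicate number and a term for the group, and not a measured value per library. They carry no scatter between replicates, so that no standard deviation over replicates and no test could be computed, and the 9 levels given for a gene below follow from its group and its replicate number. The order of the groups is thus the same at each replicate number by construction. Differences were therefore set beside a fixed size of 0.25 on the log2 scale (1.19-fold) and beside the share of all listed genes that passed it. A level is the fitted read count divided by the library's scaling factor. A difference is the mean log2 ratio of levels over the 3 replicate numbers. Where the levels of a gene do not overlap between groups, its difference exceeds its span over replicate numbers. Such a separation is therefore no support from replicates. The share of all listed genes without overlap was not computed. Fitted counts summed to between 21482954 (TTP replicate 1) and 102613526 (TTP-AA replicate 3) per library, with the others between 25504519 and 38032238.

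Zfp36 had levels of 1742, 1422 and 889 in GFP replicates 1 to 3, 1784, 1445 and 912 in TTP and 2824, 2295 and 1441 in TTP-AA. TTP-AA was the highest group, by 0.69 over GFP on the log2 scale, and TTP was within 0.03 of GFP. Reads of the disrupted gene and of the transgene cannot be told apart in the table, so the level of Zfp36 does not check the labels of the GFP and TTP libraries. The 6 macrophage markers in the table summed to levels of 455097 to 874726 per library. The F4/80 gene, listed as Emr1, differed from GFP by -0.76 in TTP and by 0.68 in TTP-AA (log2), Fcgr1 by -1.21 and -0.39 and Lyz2 by -0.29 and 0.18. Csf1r (-0.04 and 0.23), Itgam (0.06 and 0.20) and Cd68 (-0.07 and 0.03) stayed under 0.25 in both. The table held 7 of the markers of B cells, fibroblasts, endothelium and neutrophils, and neither T cell marker (Cd3e and Cd3g). The 7 summed to 127 to 196 in GFP, 127 to 197 in TTP and 207 to 324 in TTP-AA, most of it S100a8. In the 3 groups 6, 6 and 5 of the 7 had a mean below 10. The part of these markers in the proteasome values was not tested.

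Per kb of transcript, the core genes were the most abundant of the 43. The median level per kb was 8415 for the 7 beta subunits, 5615 for the 7 alpha subunits, 3868 for the 6 ATPases of the base and 3986 for the 8 lid subunits, averaged over the 9 libraries. Base scaffold and receptor genes (Psmd1, Psmd2 and Psmd4) had a median of 4547 per kb. Genes of factors that assemble or cap the particle were lower, with medians of 969 per kb for the 3 base chaperones, 1859 for the 4 core chaperones and 1438 for the 4 alternative cap genes and the inhibitor gene together. In GFP alone the same medians were 8119, 5085, 3628, 3901, 4744, 953, 1789 and 1455, so that the order of the beta ring, the alpha ring and the chaperones held there as well.

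Within the core, whose subunits are present in equal numbers, the level per kb spanned 10.4-fold. Psmb6, the subunit with caspase-like activity, was highest at 23407 per kb, followed by Psma7 at 14945. Psma3 was lowest at 2260, and Psmb2 was the lowest beta subunit at 4665. Psmb5, with chymotrypsin-like activity, stood at 8415 and Psmb7, with trypsin-like activity, at 8879. The low value of Psma3 depends on the length used, since its annotated transcript of 2846 bases holds a 3′UTR of 1952 bases. Per kb of coding sequence the core spanned 3.94-fold, from Psmb2 to Psmb6. In the regulatory particle Psmd8, a lid subunit, was highest at 10841 per kb and Psmd11, another lid subunit, lowest at 1168. Among the ATPases, Psmc3 (6208) and Psmc6 (2753) were the extremes. In the base scaffold, Psmd2 stood at 4927 and Psmd1 at 3157. The chaperone Psmd10 (also called gankyrin) stood at 1975 and Psmd9 at 853, Psmg4 at 2940 and Psmg3 at 1103, and the alternative cap Psme2 at 2737. The inhibitor gene Psmf1 was the lowest of all 43 at 209 per kb, with 2822 of its 3809 bases in the 3′UTR. Per kb of coding sequence it stood at 979 and Psme4 was lower at 841.

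**Figure D1:**
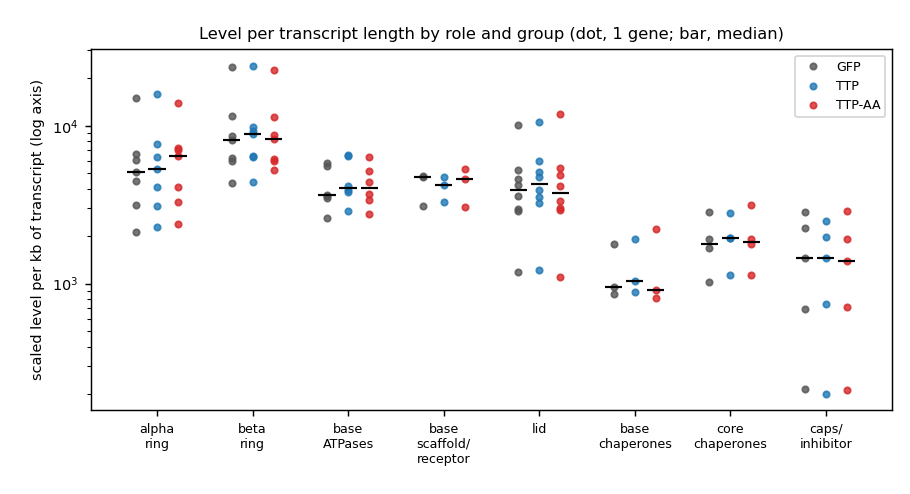
Scaled level per kb of transcript (log axis) of the 43 genes by role and group. Each dot is 1 gene and each bar the median of its class. Psmb6, at 23407 per kb over all libraries, is the highest dot of the beta ring and Psmf1, at 209, the lowest dot of the figure.

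Between the TTP and GFP libraries each of the proteasome genes differed by less than 0.25 on the log2 scale, and most were higher in TTP. In TTP vs GFP, 35 of 43 were above 0 and 8 below, where 49.7% of all listed genes were above 0, and 54.5% of the 7036 listed genes at or above the level of the lowest of the 43. The median difference was 0.09 (SD over the 43 genes 0.12), from -0.23 for Psmb4 to 0.24 for Psmd7. No gene was higher by at least 0.25, a size that 8.24% of the listed genes passed, and none was lower by at least 0.25, which 12.5% passed. Among these 7036 genes, whose lower bound is the level of Psmf1 (796), 13.8% passed the size in either direction, and the SD of their differences was 0.20. Since these are bulk samples, fewer cells of a type and less RNA per cell cannot be told apart for any of these values.

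The ATPase and lid genes chosen by symbol lay on the same side of 0 in TTP vs GFP, and the scaffold and receptor genes did not. All 6 ATPase genes were higher in TTP, by 0.12 to 0.20 with a median of 0.15. The 8 lid genes chosen by symbol were all higher, by 0.04 to 0.24 with a median of 0.16. A further lid gene, Shfm1 (also called Sem1), was left out by the choice of symbols and differed by -0.15. Psmd7, a lid subunit that pairs with the deubiquitinase Psmd14 (chromosome 8, 107580381 to 107588464, minus strand, GRCm38), had levels of 4071, 4070 and 5968 in GFP replicates 1 to 3, 4821, 4783 and 7078 in TTP and 4000, 3982 and 5861 in TTP-AA. TTP was the highest group, by 0.24 over GFP (1.18-fold), while replicate 3 of GFP was above replicates 1 and 2 of TTP. Psmc5, an ATPase of the base (chromosome 11, 106256154 to 106263120, plus strand), had levels of 6040, 7199 and 8677 in GFP, 6972, 8246 and 10029 in TTP and 5609, 6656 and 8053 in TTP-AA. Its TTP libraries overlapped with those of GFP, and the difference was 0.20. Psmd14, which cleaves ubiquitin chains from substrates, had levels of 7600, 8466 and 8328 in GFP, 8658, 9572 and 9501 in TTP and 7748, 8595 and 8487 in TTP-AA. Its 3 TTP levels were all above the 3 GFP levels and the 3 TTP-AA levels, with a difference from GFP of 0.19. As the levels are fitted, this says only that the difference exceeds the span of Psmd14 over replicate numbers (0.15). Psmf1, which was lower in TTP, was the only other proteasome gene whose TTP and GFP levels did not overlap. The remaining ATPases were Psmc1 (0.18), Psmc3 (0.16), Psmc4 (0.14), Psmc6 (0.14) and Psmc2 (0.12). In the base scaffold, Psmd1 differed by 0.09 and Psmd2 by 0.00, and the ubiquitin receptor gene Psmd4 by -0.17.

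Genes of the alpha and beta rings were more mixed in TTP vs GFP, with medians of 0.07 (5 of 7 above 0) and 0.03 (6 of 7 above 0). Psma4 was 0.22 higher, with levels of 6951, 7866 and 8213 in GFP, 8101, 9099 and 9586 in TTP and 7687, 8663 and 9079 in TTP-AA. The lowest TTP level of Psma4 lay below the highest GFP level. Psmb4, a structural beta subunit (chromosome 3, 94884093 to 94886961, minus strand), was the lowest of the 43, with levels of 11817, 14199 and 14696 in GFP, 10076, 12015 and 12549 in TTP and 11743, 14049 and 14596 in TTP-AA. TTP was the lowest group for Psmb4, by 0.23 below GFP (0.851-fold), and GFP and TTP-AA were nearly equal. The catalytic genes Psmb5, Psmb6 and Psmb7 differed from GFP by 0.14, 0.03 and 0.09. Among the chaperones that build the core, Psmg1 was 0.21 and Psmg3 0.15 higher, and Psmg2 (0.03) and Psmg4 (-0.02) were close to 0. The base chaperones Psmd5, Psmd9 and Psmd10 were higher by 0.12, 0.03 and 0.11.

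Of the alternative cap genes, Psme1 and Psme2 were lower in TTP, Psme3 was at 0.00 and Psme4 was higher. Psme1 and Psme2 encode both subunits of PA28αβ, an interferon-inducible activator of the core used in antigen processing. Psme1 (chromosome 14, 55578123 to 55581529, plus strand) had levels of 2359, 2737 and 2372 in GFP, 2093, 2410 and 2107 in TTP and 2016, 2329 and 2026 in TTP-AA. It was 0.18 lower in TTP and 0.23 lower in TTP-AA than in GFP, with 1 of the TTP libraries above the lowest of GFP. Psme2 (chromosome 14, 55587441 to 55591113, minus strand) had levels of 2397, 2741 and 3123 in GFP, 2078, 2358 and 2712 in TTP and 2410, 2744 and 3139 in TTP-AA. Psme2 was 0.21 lower in TTP, and its levels in GFP and TTP-AA were nearly the same (a difference of 0.01). Psme3, the nuclear activator PA28γ, differed from GFP by 0.00 in TTP, Psme4, the activator PA200, by 0.10 and the inhibitor gene Psmf1 by -0.09. Exons of Psme1 overlap Emc9 on the opposite strand, and whether the counting used strand was not stated. Exons of Psma4, Psma5, Psmb7, Psmc3, Psmd1, Psmd3, Psmd9 and Psmd13 also overlap a gene on the opposite strand, and those of Psmb5, Psmd1 and Psmg3 a gene on the same strand. The overlapping gene of Psmb7, Nek6, had a level of 31.9% of that of Psmb7, and that of Psmc3, Slc39a13, 7.37%. A near-identical copy of Psme2, Psme2b, had 0.914% of its level.

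**Figure D2:**
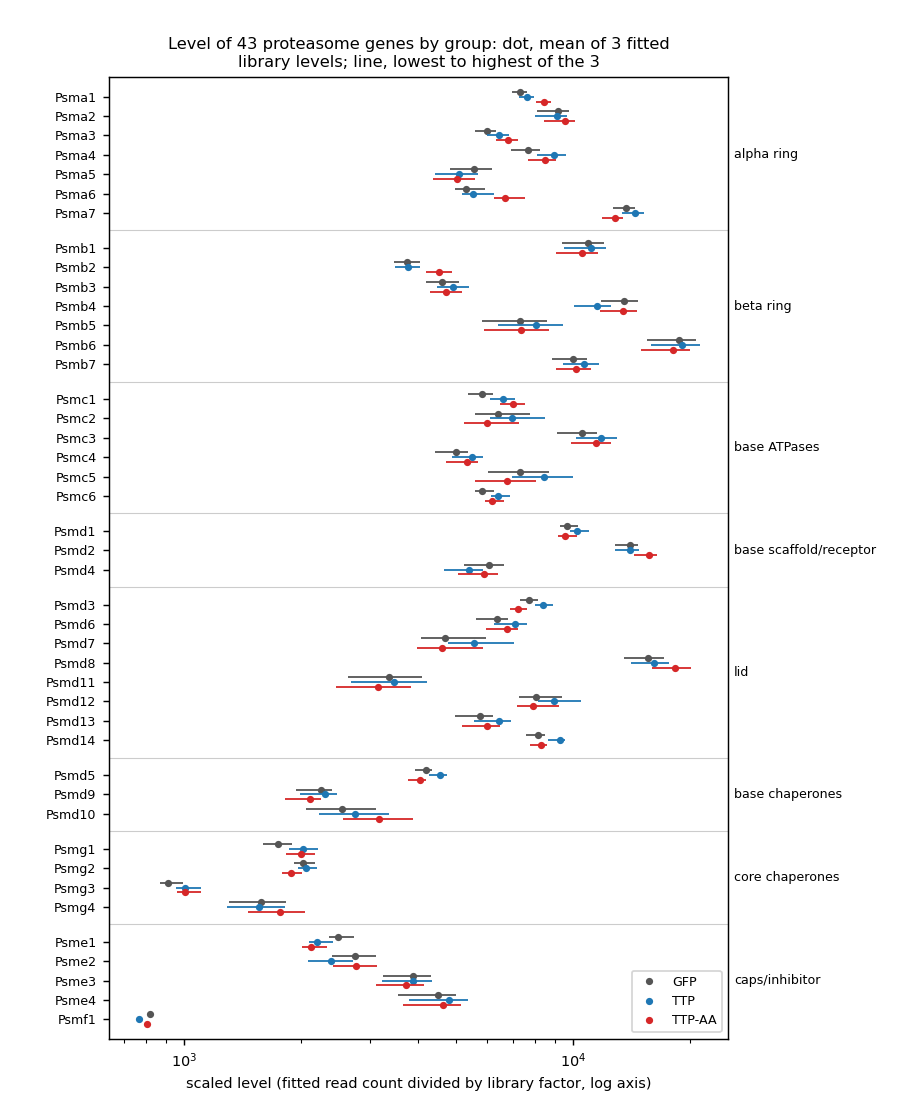
Scaled level (log axis) of the 43 genes, by role. Dots are means of the 3 fitted library levels of a group and lines run from the lowest to the highest of the 3. For most genes the lines of the 3 groups overlap, and Psmd14 in TTP and Psmb2 in TTP-AA are among the exceptions. Lines do not overlap where the fitted group difference exceeds the span of the gene over replicate numbers.

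In TTP-AA vs GFP, the proteasome genes lay on both sides of 0. Their median difference was 0.03 (SD over genes 0.13), 24 were above 0 and 19 below, where 50.4% of the listed genes and 49.0% of the 7036 were above 0. Psma6, Psmd10, Psmb2 and Psmc1 were higher by at least 0.25, 4 of 43 (9.30%), beside 15.6% of the listed genes. None was lower by that size, beside 14.8%. Among the 7036 genes at or above the lowest of the 43, 23.4% passed in either direction, also above the share of the 43. This comparison and TTP vs GFP share the GFP libraries, and TTP-AA vs TTP shares the TTP and TTP-AA libraries with them, so the values of a gene in the 3 comparisons are not independent.

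Psma6, an alpha ring subunit (chromosome 12, 55384222 to 55418454, plus strand), had the highest difference of the 43 in TTP-AA. Its levels were 4974, 4964 and 5957 in GFP, 5222, 5172 and 6264 in TTP and 6300, 6261 and 7542 in TTP-AA. All 3 TTP-AA levels were above those of GFP, by 0.34 (1.26-fold), and TTP replicate 3 reached the lower end of the TTP-AA levels. Psmb2, a structural beta subunit (chromosome 4, 126677630 to 126709714, plus strand), had levels of 3472, 4053 and 3708 in GFP, 3491, 4045 and 3734 in TTP and 4199, 4881 and 4482 in TTP-AA. GFP and TTP were nearly equal for Psmb2, and all 3 TTP-AA levels were above the 6 others, by 0.27 over both groups. Psmc1, an ATPase of the base (chromosome 12, 100110154 to 100123405, plus strand), had levels of 5387, 5858 and 6240 in GFP, 6114, 6599 and 7093 in TTP and 6490, 7029 and 7515 in TTP-AA. It was 0.27 higher in TTP-AA than in GFP with TTP in between. Psmd10, a chaperone of the base (chromosome X, 140948429 to 140956728, minus strand), had levels of 2060, 2483 and 3110 in GFP, 2225, 2661 and 3364 in TTP and 2566, 3080 and 3873 in TTP-AA. TTP-AA was the highest group for Psmd10, by 0.31 over GFP, and the groups overlapped across replicate numbers.

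The lowest differences from GFP in TTP-AA were those of Psme1 (-0.23), Psma5 (-0.14), Psmc5 (-0.11) and Psmg2 (-0.10). By role, the medians were 0.14 for the alpha ring, 0.02 for the beta ring, 0.09 for the ATPases, 0.00 for the lid with 4 of 8 genes on each side of 0, and -0.02 for the caps and inhibitor. The core chaperones had a median of 0.15, with Psmg1 at 0.19, Psmg4 at 0.16 and Psmg3 at 0.15. Psmb5 and Psmb7 differed from GFP by 0.02 and 0.03 and Psmb6 by -0.06. For Psme3, Psme4 and Psmf1 the values were -0.05, 0.04 and -0.02.

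In TTP-AA vs TTP, the comparison of both forms of the protein, 15 of 43 genes were above 0 and 28 below, with a median of -0.05 (SD over genes 0.15), where 50.0% of the listed genes and 45.0% of the 7036 were above 0. Psma6 and Psmb2 were higher by at least 0.25, beside 20.8% of the listed genes, and Psmc5 and Psmd7 were lower by that size, beside 17.8%. In either direction that was 9.30% of the 43, 38.6% of the listed genes and 31.5% of the 7036. Psmc5 was 0.31 lower in TTP-AA (0.805-fold) and Psmd7 0.27 lower (0.83-fold), and Psma6 and Psmb2 were each 0.27 higher. Psmc2 (-0.22) and Psmd3 (-0.21) were the next lowest, and Psmb4 (0.22) and Psme2 (0.21) the next highest.

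By role, 7 of 8 lid genes and 5 of 6 ATPase genes had lower levels with TTP-AA than with TTP, and the medians were -0.15 and -0.05. Psmd8 of the lid (0.18) and Psmc1 of the ATPases (0.09) were the exceptions. Psmd8 had levels of 13560, 17137 and 16028 in GFP, 14111, 17699 and 16703 in TTP and 15994, 20128 and 18897 in TTP-AA. TTP-AA was the highest group for Psmd8, and the groups overlapped across replicate numbers. Psmd3 had levels of 7332, 7634 and 8140 in GFP, 7977, 8244 and 8870 in TTP and 6887, 7141 and 7643 in TTP-AA, and its 3 TTP-AA levels were all below the 3 TTP levels. Medians were 0.07 for the alpha ring, -0.07 for the beta ring, 0.12 for the base scaffold and receptor genes, -0.13 for the base chaperones, -0.01 for the core chaperones and -0.05 for the caps and inhibitor. Among the catalytic genes the differences were -0.12 (Psmb5), -0.08 (Psmb6) and -0.07 (Psmb7). Psmg2 was 0.13 lower and Psmg4 0.18 higher in TTP-AA, with Psmg1 at -0.02 and Psmg3 at 0.00. For Psme1, Psme3, Psme4 and Psmf1 the values were -0.05, -0.06, -0.05 and 0.07.

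**Figure D3:**
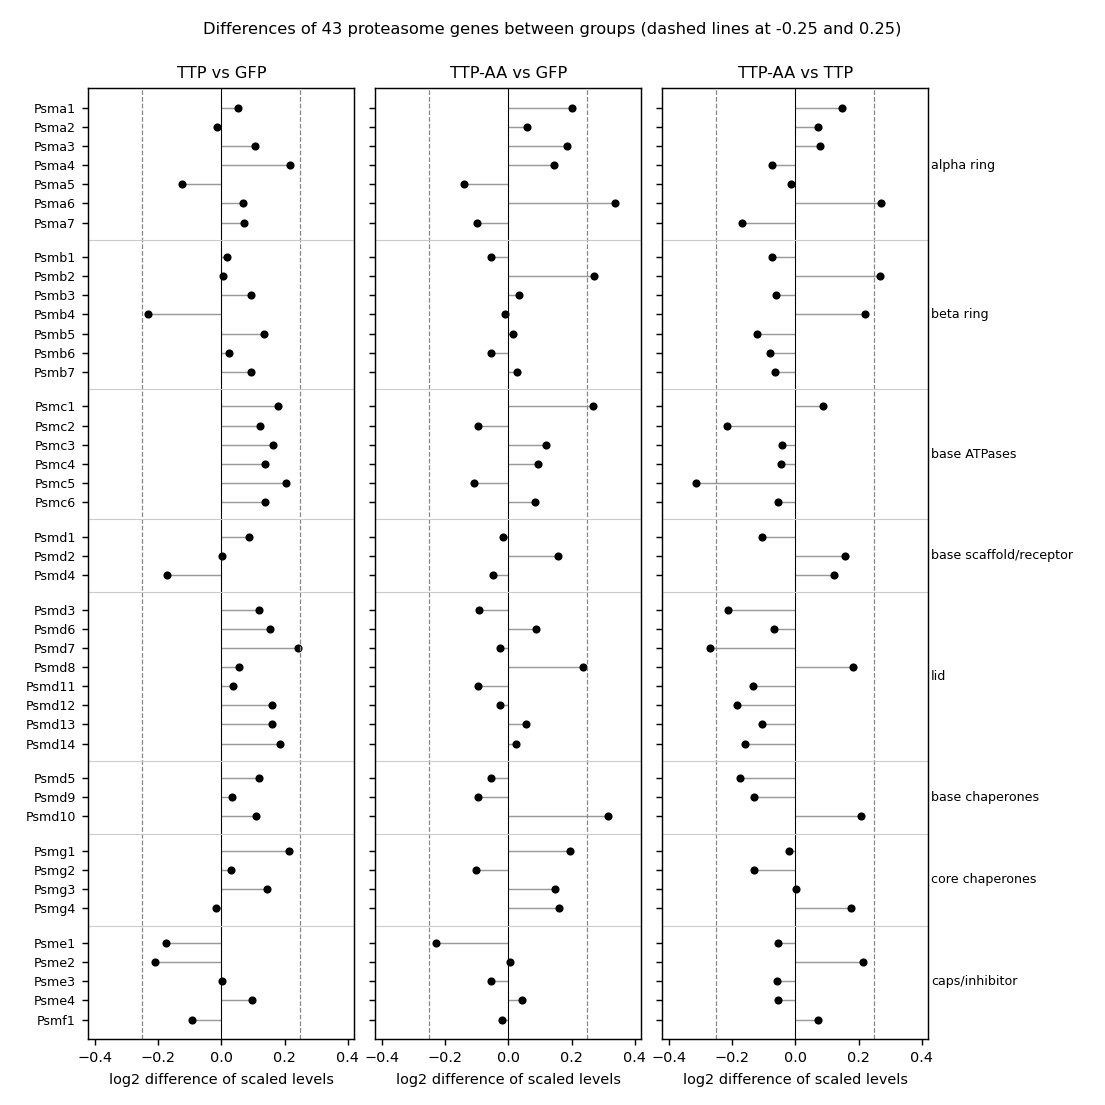
Log2 difference of scaled levels of each of the 43 genes in the 3 comparisons, by role. Dashed lines stand at -0.25 and 0.25. All base ATPase and lid genes shown lie right of 0 in TTP vs GFP. In TTP-AA vs GFP 4 genes pass a dashed line to the right. In TTP-AA vs TTP 2 genes pass to the right and 2 to the left.

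In absolute size, the median difference of the 43 genes was 0.12 in TTP vs GFP, 0.09 in TTP-AA vs GFP and 0.12 in TTP-AA vs TTP. The 7036 listed genes at or above the lowest of the 43 had 0.11, 0.14 and 0.17. The proteasome genes were thus not the nearer to 0 in TTP vs GFP, where most lay above it, and were nearer to 0 than these genes in both comparisons with TTP-AA. The SD over genes was 0.20, 0.24 and 0.30 for these 7036, beside 0.28, 0.32 and 0.42 for all listed genes and 0.12, 0.13 and 0.15 for the 43.

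**Figure D4:**
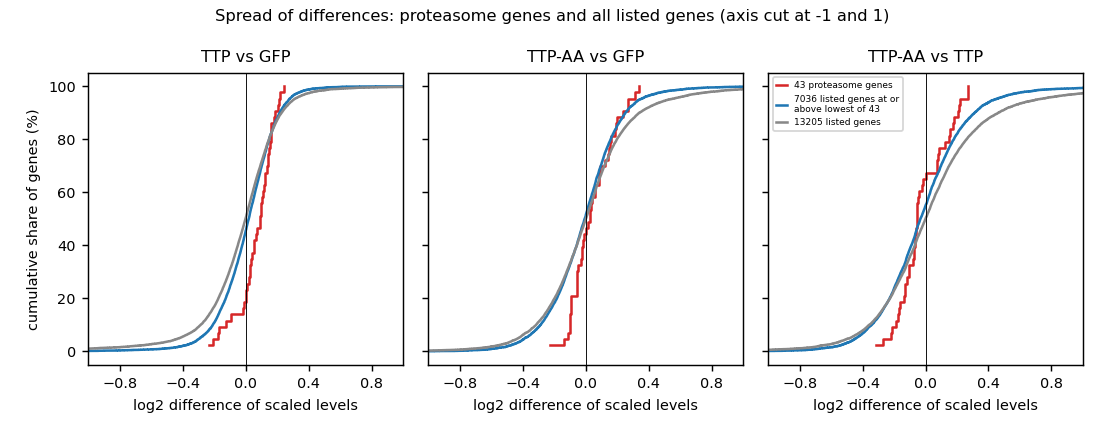
Cumulative share of genes (%) against the log2 difference of scaled levels, for the 43 proteasome genes, for the 7036 listed genes at or above the lowest of them and for all 13205 listed genes. The proteasome curve lies to the right of the others over most of its length in TTP vs GFP and is steeper than both in all 3 panels.

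The differences went in part with the chromosome that a gene is on. The sign of a gene's difference was that of the median listed gene of its chromosome for 34 of 43 genes in TTP vs GFP, 31 in TTP-AA vs GFP and 34 in TTP-AA vs TTP. Pearson's r over the 43 genes was 0.65, 0.70 and 0.59 (Spearman's rho 0.48, 0.67 and 0.62), given as a description, since genes of a chromosome share its median and all share the libraries. On chromosome 3, where the 657 listed genes had a median of -0.19 in TTP vs GFP, Psma5 (-0.12), Psmb4 (-0.23) and Psmd4 (-0.17) were all below 0. They made up 3 of the 8 genes that were lower in TTP. On chromosome 12, with a median of 0.15 over 446 genes in TTP-AA vs GFP, Psma3 (0.18), Psma6 (0.34) and Psmc1 (0.27) were all above 0. On chromosome 11, with a median of -0.13 over 1125 genes in TTP-AA vs TTP, all 8 proteasome genes were below 0, from -0.31 for Psmc5 to -0.05 for Psme4. These chromosomes were chosen as examples that share the sign. The sign was shared by 2, 1 and 4 of the 5 genes on chromosome 14 in the 3 comparisons. On chromosome 16 it was shared by 0, 2 and 1 of the 2 genes. The share of all listed genes with the sign of their chromosome was not computed. In TTP vs GFP 35 of the 43 were above 0, so that genes on a chromosome with a median above 0 mostly share its sign.

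**Figure D5:**
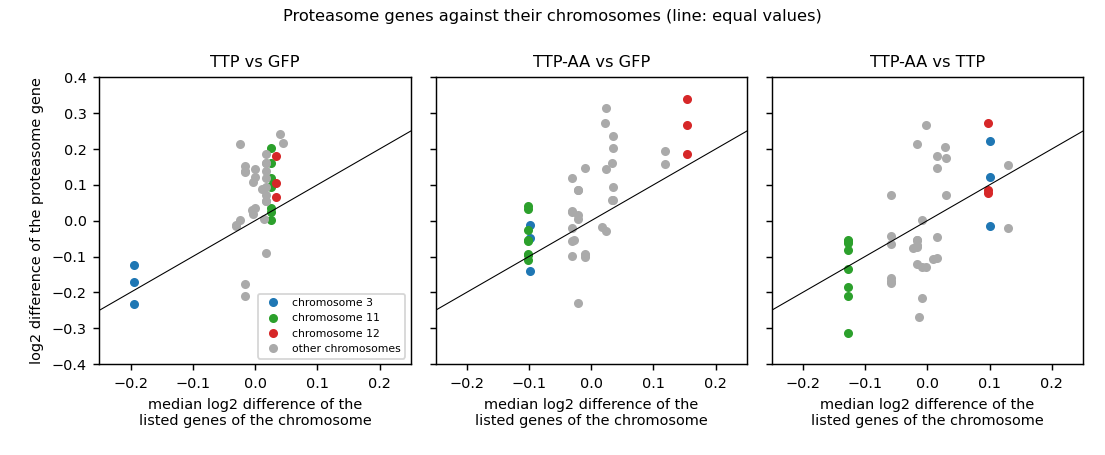
Log2 difference of each of the 43 genes against the median log2 difference of the listed genes of its chromosome, with chromosomes 3, 11 and 12 in colour and a line at equal values. In TTP vs GFP the 3 genes of chromosome 3 stand apart at a chromosome median of -0.19, and in TTP-AA vs TTP the 8 genes of chromosome 11 all lie below 0 at a median of -0.13.

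With each gene taken relative to the median of its chromosome, the SD over the 43 genes was 0.09, 0.10 and 0.12 in the 3 comparisons. In TTP vs GFP 36 genes were then above 0, and the medians of the ATPase and lid genes were 0.15 and 0.14, close to those without centring. In TTP-AA vs GFP 32 genes were then above 0, against 24 without centring, and the median of the 43 was 0.05. In TTP-AA vs TTP 18 were above 0, against 15 without it. Of the 13205 listed genes 6598 were above 0 with centring in each comparison. Psmb4 was then at -0.04, Psma5 at 0.07 and Psmd4 at 0.02, while Psme1 (-0.16) and Psme2 (-0.19) kept most of their difference. Other class medians depended on the centring. The alpha ring median in TTP-AA vs GFP was 0.03 with it, against 0.14 without it, and the medians of the base scaffold and receptor genes (0.04), the lid (0.04) and the caps and inhibitor (0.03) turned from below to above 0. In TTP-AA vs TTP the lid median was -0.07 with it, and the alpha ring (-0.02), the beta ring (0.05) and the caps and inhibitor (0.07) took the opposite sign. In TTP-AA vs GFP Psmd10 (0.29) alone was higher by at least 0.25, with Psma6 at 0.18 and Psmc1 at 0.11. In TTP-AA vs TTP Psmb2 (0.27) was the 1 gene higher and Psmd7 (-0.26) the 1 gene lower by that size, and Psmc5 was at -0.19.

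The replicate number went with larger differences than the group for most of the 43 genes. From the lowest to the highest replicate number, the levels of a gene spanned a median of 0.28 on the log2 scale (0.04 for Psmf1 to 0.64 for Psmd11), and from the lowest to the highest group a median of 0.17 (0.06 for Psme3 to 0.34 for Psma6). The span over replicate numbers was the larger for 34 of 43 genes, beside 60.1% of the listed genes. The libraries numbered 1 were the lowest for 34 of the 43, beside 33.7% of the listed genes. The libraries numbered 3 were the highest for 30 of the 43, and the share of the listed genes was not computed for this. Psmd11, with the widest span, had levels of 3374, 2636 and 4101 in GFP, 3468, 2690 and 4222 in TTP and 3159, 2458 and 3839 in TTP-AA. Its libraries numbered 2 were the lowest in every group. Psmb5 had levels of 5846, 7473 and 8578 in GFP, 6437, 8166 and 9458 in TTP and 5918, 7533 and 8680 in TTP-AA, a span of 0.55 over replicate numbers against 0.14 over groups. The pattern over numbers is the same in each group because the fitted model has 1 term for it.

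The catalytic subunits of the immunoproteasome, which replace Psmb5, Psmb6 and Psmb7 in cells exposed to interferon, were set beside these constitutive counterparts. Psmb8 differed by -0.54 and Psmb9 by -0.77 in TTP vs GFP, and in TTP-AA vs TTP the values were 0.67 and 0.73. Psmb10 differed by 0.12 and -0.02 in the same comparisons, where Psmb7 differed by 0.09 and -0.07. The values in TTP-AA vs GFP were 0.13 for Psmb8, -0.04 for Psmb9 and 0.10 for Psmb10, beside 0.02, -0.06 and 0.03 for Psmb5, Psmb6 and Psmb7. Per kb, Psmb8 stood at 32.3% of Psmb5 in GFP, 20.3% in TTP and 35.0% in TTP-AA. Psmb9 stood at 1.28%, 0.734% and 1.29% of Psmb6, and Psmb10 at 16.1%, 16.4% and 16.9% of Psmb7. The constitutive Psmb5 and Psmb6 differed by 0.14 or less in size where Psmb8 and Psmb9 passed 0.25 in TTP vs GFP and TTP-AA vs TTP. Of the PA28αβ genes, Psme2 differed in the same directions as Psmb8 and Psmb9 there (-0.21 and 0.21), and Psme1 differed by -0.18 and -0.05.

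Some genes that act around the proteasome passed 0.25. Uchl5, a deubiquitinase of the base, was 0.29 higher in TTP than in GFP and 0.31 lower in TTP-AA than in TTP. Ubb and Rps27a, which encode ubiquitin, differed by -0.38 and -0.37 in TTP-AA vs TTP, and by -0.42 and -0.31 in TTP-AA vs GFP. Vcp, the ATPase p97 that hands substrates to the proteasome, was 0.38 and the ligase gene Ube3c 0.32 lower in TTP-AA than in TTP. Nfe2l1, which encodes the factor that induces proteasome genes when the proteasome is inhibited, differed by -0.05, -0.15 and -0.10 in the 3 comparisons.

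TTP binds AU-rich elements with TATTTAT as the preferred form, so the 3′UTRs of the 43 genes were searched for it on the sense strand. It was present in 4 of 43 (9.30%), beside 27.4% of the 3′UTRs of 11420 listed genes, whose median length was 960 bases against 241 for the 43. The shorter ATTTA, which TATTTAT contains, was in 34.9% against 66.1%. The sites of the 4 genes are shown because they are the places in this set where TTP could be looked for. They are given with 10 bases on each side, from GRCm38 with the GENCODE annotation, 5′ to 3′ on the strand of the gene, with the motif in capitals.
Psma2, chr13:14626455-14626481, plus strand: gttactcgtgTATTTATtgtatatctg
Psmb1, chr17:15475678-15475704, minus strand: tatctggataTATTTATttattttgag
Psmb1, chr17:15475609-15475635, minus strand: cgtgcatgcaTATTTATgtgaacaggg
Psmc6, chr14:45349629-45349655, plus strand: aaattgagatTATTTATagttaattct
Psme3, chr11:101322910-101322936, plus strand: atgtttctcgTATTTATagtattgtgc

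The first of the Psmb1 windows holds a further, overlapping match 4 bases on. Differences in TTP vs GFP were -0.01 for Psma2, 0.02 for Psmb1, 0.14 for Psmc6 and 0.00 for Psme3, with a median of 0.01 beside 0.10 for the 39 genes without the motif. In TTP-AA vs GFP the medians were 0.00 and 0.03, and in TTP-AA vs TTP -0.06 and -0.05. The 4 genes lay within the range of the others in all 3 comparisons.

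Promoters, from 250 bases before to 50 after the annotated start, were taken from RefSeq on GRCm38.p6 and were matched by symbol for 36 of the 43 genes (39 sequences). They were searched on both strands for TGACNNNGC, the core of the antioxidant response element to which Nfe2l1 and Nfe2l2 bind, and for CCAAT. TGACNNNGC was in 6 of 39 sequences (15.4%), beside 14.4% of the 11910 promoters of listed genes and 12.4% of all 32851 promoters. CCAAT was in 12 of 39 (30.8%), beside 38.2% and 37.4%, and the genes with CCAAT were others than those with TGACNNNGC. The TGACNNNGC matches of 4 genes are shown since this is the element through which proteasome genes are known to be induced together. They stand 5′ to 3′ on the gene's strand with the match in capitals, which for Psme4 reads on the other strand.
Psmb5, chr14:54618024-54618052, minus strand: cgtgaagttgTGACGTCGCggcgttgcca
Psmb6, chr11:70525338-70525366, plus strand: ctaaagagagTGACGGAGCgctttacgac
Psmd9, chr5:123228149-123228177, plus strand: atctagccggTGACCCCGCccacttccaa
Psme4, chr11:30771758-30771786, plus strand: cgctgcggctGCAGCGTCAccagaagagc

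The match began 47 bases before the start in Psmb5, 9 in Psmb6, 31 in Psmd9 and 7 in Psme4, and the other matches were in Psmc6 and Psmd12. The 6 genes with it had a median difference of 0.12 in TTP vs GFP (0.03 to 0.16), beside 0.08 for the 30 without it, whose range (-0.23 to 0.22) held theirs. The medians in TTP-AA vs GFP were -0.01 and 0.04. In TTP-AA vs TTP all 6 were below 0 (-0.19 to -0.05), where 28 of the 43 were. Their median was -0.10 beside -0.02 for the others, whose range was -0.31 to 0.27. Psmb6, Psmd12 and Psme4 are on chromosome 11, which had a median of -0.13. Relative to chromosome medians Psmb6 (0.05) and Psme4 (0.07) were above 0. Psmd12 (-0.06), Psmb5 (-0.10), Psmc6 (-0.04) and Psmd9 (-0.12) were below. For CCAAT the medians with and without it were 0.08 and 0.09 in TTP vs GFP, 0.05 and 0.01 in TTP-AA vs GFP, and 0.08 and -0.05 in TTP-AA vs TTP, and the ranges of both sets overlapped in each comparison.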

How the data were processed

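RNA was measured by sequencing in 3 groups of 3 libraries, with groups and replicate numbers taken from the sample titles. Per the submitters' processing notes and, for the model, the study's methods, the authors depleted ribosomal RNA, trimmed reads with Trim Galore, aligned them with TopHat2 (2.0.12) to mouse genome build 38, counted with HTSeq and fitted DESeq2 (1.6.3) with library date and condition as terms. The methods name another version of TopHat than the notes. The sources used here do not state whether counting used strand or whether the fit shrank fold changes, and reads that match several places could be kept.

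The deposited library values, named normalized counts by the authors, are a signal per gene and library. Checked before use, they held no 0 among 25494 genes, their centred log2 table had 4 nonzero singular values where 9 free libraries give 8, and same-numbered log2 ratios were constant over replicate numbers to 2.6e-14. They are therefore fitted means, and no test was run. The deposited comparison tables hold the authors' mean signal, log2 fold changes, standard errors, test scores and p-values. Only the symbols, the chromosomes and the list of genes were used from them for the results, and 3 repeated identifiers were counted once.

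Libraries were scaled by the median ratio over the 13205 listed genes (factors 0.612 to 2.83), and a difference is the mean of the log2 ratios of scaled levels over the replicate numbers. The code was tested on simulated data with 200 changed genes. Transcript lengths and 3′UTRs were those of GENCODE mouse release 21 (transcript with the longest coding sequence), and copies were sought with blastn 2.17.0 (at least 95% identity over 100 bases). Python 3.11.15, numpy 2.4.6, pandas 2.3.3 and matplotlib 3.10.9 were used. The genes named in the text were, per comparison, the 4 highest and 4 lowest differences, the extremes per length of each class, the catalytic, cap, inhibitor and core chaperone genes, Zfp36, and related or immunoproteasome genes past 0.25. Some related genes that meet this rule, and counts over their list, are not reported here. Others are named to describe their class, chromosome or motif and were chosen after their values were seen. The 43 genes, the lists and the size were chosen with earlier results of these data known. Alternatives were other scalings, filters on low values, a pseudocount of 1, a size of 0.5, removal of chromosome medians or of GC, length and level trends, leaving out each replicate number, and other lengths.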

Additional observations from a re-analysis of the deposited data

How the results depend on the processing

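The median difference of the 43 genes kept its sign under every alternative run, and its size depended on them. In TTP vs GFP (0.09) it ran from 0.06 with GC, length and level trends removed to 0.10 with all genes of the table used for scaling. In TTP-AA vs GFP (0.03) it ran from 0.01 with all genes to 0.05 relative to chromosome medians, and in TTP-AA vs TTP (-0.05) from -0.08 with all genes to -0.02 relative to chromosome medians. Counts of genes past 0.25 are small and many stood near the threshold. In TTP vs GFP, where 0 were higher and 0 lower, 1 was higher with all genes of the table used for scaling, and 1 was lower with GC, length and level trends removed and 1 when only genes at or above the lowest of the 43 were used (an alternative chosen after seeing the data). In TTP-AA vs GFP, the 4 higher genes were 1 relative to chromosome medians and 0 at a size of 0.5. In TTP-AA vs TTP, the 2 higher genes were 0 with all genes of the table, 1 relative to chromosome medians, 4 with trends removed and 0 at a size of 0.5. The 2 lower genes were 1 with upper quartile scaling, with genes of a mean level of at least 100, relative to chromosome medians, with trends removed and with genes at or above the lowest of the 43, and 0 at a size of 0.5. The cause was not tested. The span of the core per kb, 10.4-fold, was 8.56-fold with the longest transcript and 3.94-fold with coding length, the latter chosen after seeing the data. Leaving out a replicate number changed no count, which follows from the fitted values, since they hold the same ratio at each number. No paired analysis was possible because the fitted values leave no residual. Sums of fitted counts stand in for depth, the depth of the measured libraries was not seen, and differences as small as those of most of the 43 genes cannot be set against replicate error here.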
